A study of Mus musculus with 4 samples.

Results

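Dcn, Lum, Ogn, Fn1, Foxc1, Foxd1, Slc6a13, Cxcl12, Igfbp2 and Igf2bp2 are genes expressed by the fibroblasts of the leptomeninges, the pia and arachnoid that cover the brain, and none of them encodes a collagen. They were taken by gene name from a deposited table of 55414 genes, and all 10 were found. All 10 also passed the filter on low counts, as did 17017 genes of the table. RNA came from the cerebral cortex of C57BL/6J mice on postnatal day 1. The 2 libraries labelled cKO (replicates 2 and 3) carried floxed alleles of Mkk7 (Map2k7) on both chromosomes together with Emx1-Cre. The 2 libraries labelled Control (replicates 2 and 3) carried the same floxed alleles without the Cre. The study asks what MKK7, a kinase that activates JNK, does in the developing brain.

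The leptomeninges are made mainly of fibroblasts that lay down the outer basement membrane of the cortex and secrete signals to the cells beneath it. CXCL12 from the meninges holds Cajal-Retzius cells and migrating interneurons near the surface, and retinoic acid from the same cells acts on cortical neurogenesis. In the mouse, FOXC1 is needed for the forebrain meninges to form. Emx1-Cre recombines in progenitors of the dorsal telencephalon and their progeny, whereas the forebrain meninges arise largely from the neural crest. Several of the 10 genes are not restricted to fibroblasts: Fn1, Foxc1 and Cxcl12 are also expressed by cells of blood vessels, Igfbp2 by choroid plexus and glia, and Igf2bp2 by neural progenitors.

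None of the 10 genes passed the threshold between genotypes, an edgeR quasi-likelihood adjusted p below 0.05 over all 17017 genes. The adjusted p-values lay between 0.362 and 0.933. Over all tested genes the share called was 0.00588% higher and 0.0411% lower. At an unadjusted p below 0.05, 4 of the 10 were higher in cKO and 0 lower, against 5.28% and 5.66% of all tested genes. The 10 genes were chosen with earlier results of these data known, so such shares are not independent evidence. DESeq2 and limma-voom also called none of the 10. Of the 10 genes 8 had a positive and 2 a negative log2 fold change, with a median of 0.48, against -0.0021 over all tested genes, 49.8% of which were positive. For Dcn, Ogn, Fn1, Igf2bp2 and Cxcl12 both cKO libraries lay above both Control libraries, which was the case for 22.0% of all tested genes. None had both cKO libraries below both Control libraries, against 22.2% of all tested genes, and for the other 5 the groups overlapped. In tissue RNA, a change in the number of cells of a type and a change in RNA per cell cannot be told apart.

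Library totals ranged from 19421470 to 22511175 counts. Map2k7 was not lower in cKO, at 47.9 and 48.2 CPM (counts scaled to a library total of 1e+06) in the cKO libraries and 38.4 and 30.4 CPM in the Control libraries (log2 fold change 0.48, SE 0.18, edgeR adjusted p = 0.428). Which exons were floxed is not given in the labels, and a count over the whole gene can hold RNA outside them, so this value does not check the labels. The library cKO 3 came from a male, with 0 counts of Xist and 985 of Ddx3y, and the other 3 libraries from females. Leaving out cKO 3 therefore compares female libraries alone. Since they differ in sex, the 2 cKO libraries came from different animals. The labels do not say whether the 2 Control libraries did. P-values therefore measure the spread between libraries, which for Control may not be a spread between animals.

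Whether the cortex samples held RNA of fibroblast markers was checked on genes outside the 10. Of the 10 general fibroblast markers, among them Pdgfra, Col1a1, Col1a2 and Ptgds, none was at 0 in either group. Their summed level was 943 and 786 CPM in the cKO libraries and 649 and 856 CPM in the Control libraries. The 4 arachnoid markers Aldh1a2, Wnt6, Angptl2 and Crabp2 summed to 57.2 and 46.1 CPM in cKO, against 28.4 and 40.7 CPM in Control. The 4 pial markers S100a6, Ngfr, Lama1 and Rdh10 summed to 27.6 and 24.1 CPM in cKO, against 26.4 and 21.1 CPM in Control. The groups were separate for the arachnoid sum, and they overlapped for the pial and general fibroblast sums. All 4 arachnoid markers had a positive log2 fold change, with a median of 0.51. Of the pial markers 1 (Lama1, 0.72) was positive and 3 were negative, with a median of -0.022. In the general fibroblast sum the highest gene was Ptgds, at 537 and 397 CPM in cKO, against 371 and 527 CPM in Control. All 10 general fibroblast markers had a positive log2 fold change, with a median of 0.36, where 49.8% of all tested genes were positive. For 6 of them both cKO libraries lay above both Control libraries, against 22.0% of all tested genes. None passed the test. RNA of the general fibroblast markers was found in every library.

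The 10 genes differed widely in level. On the deposited length-corrected scale (TPM, transcripts scaled to a total of 1e+06), Igfbp2 averaged 441 ± 67.0 TPM (SD over all 4 libraries) and made up 72.1% of the summed level. Cxcl12 followed at 59.1 ± 12.95 TPM and Dcn at 48.6 ± 12.9 TPM, and the ranges of these neighbours overlapped, although Cxcl12 was above Dcn in 4 of 4 libraries. Slc6a13 stood at 26.6 ± 1.17, Fn1 at 15.1 ± 4.33 and Ogn at 7.23 ± 1.23 TPM, each apart from the next. Lum (5.50 ± 0.57 TPM), Igf2bp2 (4.42 ± 1.36 TPM) and Foxc1 (3.48 ± 0.84 TPM) overlapped in that order. Foxd1 was the lowest of the 10 at 0.96 ± 0.30 TPM, apart from the rest.

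**Figure D1:**
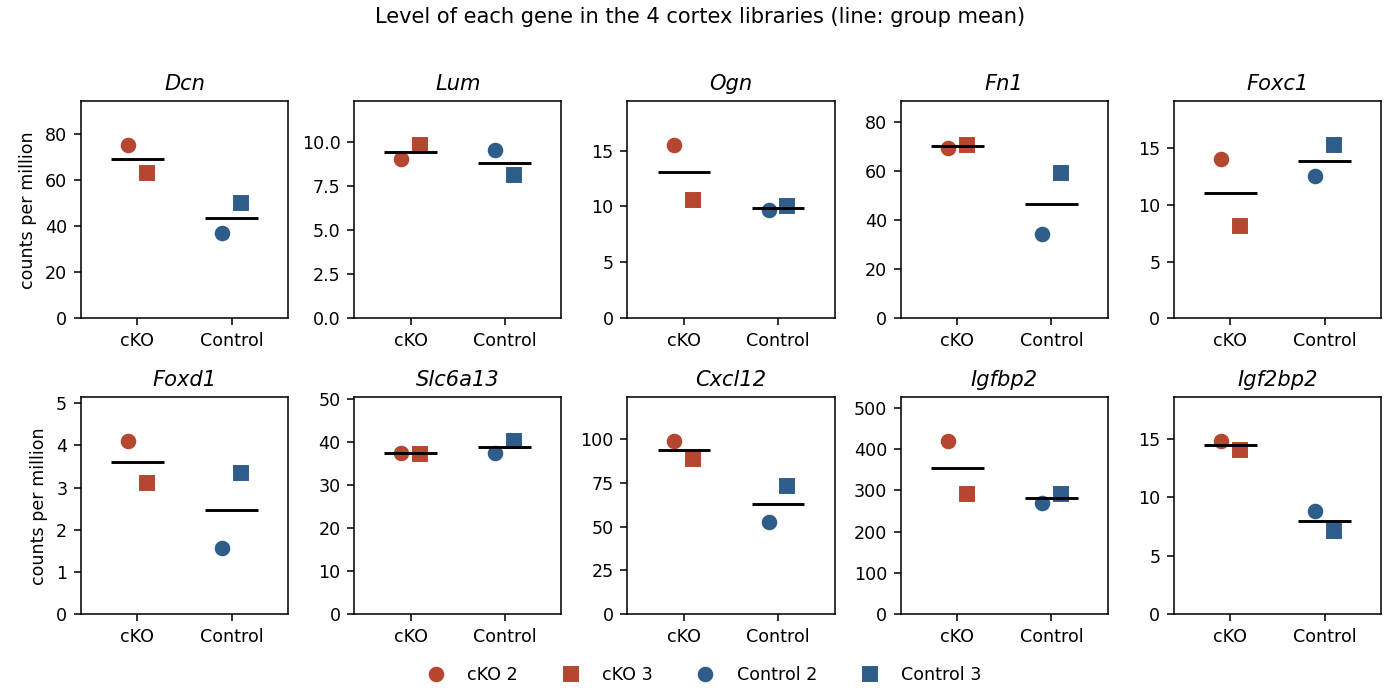
Level of each of the 10 genes in CPM (vertical axes, from 0) in the 2 cKO and the 2 Control libraries; circles are replicate 2, squares replicate 3, and lines the group means. Dcn, Ogn, Fn1, Cxcl12 and Igf2bp2 lie above both Control libraries in both cKO libraries, whereas the other 5 overlap.

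Sequence before the transcription start was available for 7 of the 10 genes from RefSeq (build GRCm38.p6, 250 bases before to 50 after the start); Dcn, Lum and Fn1 had no entry. The genes had 10 such windows in all, since Igfbp2 and Slc6a13 had several starts. Coordinates of these windows are on GRCm38.p6, while gene coordinates below are those of the deposited table on GRCm39. Of the windows, 4 are shown because they span the contents found: the most CpG dinucleotides (Igf2bp2), the most GC boxes (Cxcl12), the AP-1 match (Igfbp2) and the TATAAA letters (Ogn). Capitals mark matches on either strand to GGGCGG (GC box), TGANTCA (AP-1, the factor family that JNK acts on), TGACGTCA (CRE), GTAAACA (forkhead) or TATAAA; neighbouring matches can overlap.
Igf2bp2, chr16:22163250-22163549, minus strand: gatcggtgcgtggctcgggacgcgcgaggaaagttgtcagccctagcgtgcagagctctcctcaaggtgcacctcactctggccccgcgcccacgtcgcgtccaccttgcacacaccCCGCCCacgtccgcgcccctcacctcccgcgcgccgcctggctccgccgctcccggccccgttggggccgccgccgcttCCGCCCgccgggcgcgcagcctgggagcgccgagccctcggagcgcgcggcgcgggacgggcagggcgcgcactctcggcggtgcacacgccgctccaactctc
Cxcl12, chr6:117168285-117168584, plus strand: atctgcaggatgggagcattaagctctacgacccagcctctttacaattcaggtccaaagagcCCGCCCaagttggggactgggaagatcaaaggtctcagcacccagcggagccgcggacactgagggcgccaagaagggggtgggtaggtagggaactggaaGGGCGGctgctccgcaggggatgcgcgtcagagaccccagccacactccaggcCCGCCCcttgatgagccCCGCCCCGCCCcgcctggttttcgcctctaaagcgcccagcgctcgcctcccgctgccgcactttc
Igfbp2, chr1:72825137-72825436, plus strand: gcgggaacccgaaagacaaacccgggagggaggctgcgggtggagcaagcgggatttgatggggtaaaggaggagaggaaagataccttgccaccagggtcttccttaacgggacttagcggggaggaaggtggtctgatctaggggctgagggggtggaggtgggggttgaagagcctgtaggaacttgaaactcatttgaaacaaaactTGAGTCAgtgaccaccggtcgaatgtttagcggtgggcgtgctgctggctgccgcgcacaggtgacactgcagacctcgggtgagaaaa
Ogn, chr13:49607765-49608064, plus strand: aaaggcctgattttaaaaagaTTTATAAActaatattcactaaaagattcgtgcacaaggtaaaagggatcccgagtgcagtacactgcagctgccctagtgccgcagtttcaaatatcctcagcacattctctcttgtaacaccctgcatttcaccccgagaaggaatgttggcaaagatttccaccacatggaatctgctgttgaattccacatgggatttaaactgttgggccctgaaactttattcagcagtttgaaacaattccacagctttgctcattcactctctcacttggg

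The Igf2bp2 window held 47 CpG dinucleotides at 76.7% GC and that of Ogn 4 at 42.3% GC, against a median of 7 and 52.7% over all 32851 windows of the same length. The Cxcl12 window had 20 CpG and 5 matches to the GC box, a motif found in 35.7% of all windows. The downstream of the 2 Igfbp2 windows held an AP-1 match that starts at position -39, where -1 is the last base before the start; the upstream window had none. An AP-1 match was present in 7.81% of all windows. No window of the 7 genes held the forkhead letters (3.65% of all windows) or the CRE letters (1.79%). Both TATAAA matches of Ogn overlap each other on opposite strands, near position -229 and thus far from the start; 13.6% of all windows held that motif. These matches are descriptions of the letters and show no binding.

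The small leucine-rich proteoglycans among the 10 are Dcn, Lum and Ogn. Decorin (Dcn) binds collagen fibrils and growth factors, lumican (Lum) spaces collagen fibrils, and osteoglycin (Ogn, also called mimecan) is a related matrix protein. Dcn (ENSMUSG00000019929.17; chromosome 10, 97315471 to 97354005, plus strand) stood at 75.3 and 62.8 CPM in cKO 2 and cKO 3, against 36.9 and 49.9 CPM in Control 2 and Control 3. Both cKO libraries were above both Control libraries, and Control 2 was the lowest of the 4. The mean was 69.0 ± 8.84 CPM in cKO and 43.4 ± 9.21 CPM in Control (SD, n = 2 each), a fold of 1.59 with a 95% interval of 1.15 to 2.19. On the log2 scale the change was 0.67 (SE 0.20, edgeR adjusted p = 0.362), and 9.09% of all tested genes had a larger one. In TPM the separation was the same, with 61.1 and 56.7 in cKO against 32.4 and 44.4 in Control.

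Lum (ENSMUSG00000036446.6; chromosome 10, 97400990 to 97408565, plus strand) is the next tested protein-coding gene after Dcn, 47.0 kb away. Lum stood at 9.06 and 9.85 CPM in cKO 2 and cKO 3, against 9.52 and 8.12 CPM in Control 2 and Control 3. The groups overlapped. Its log2 fold change was 0.10 (SE 0.29, edgeR adjusted p = 0.932), with a 95% interval from -0.57 to 0.77, which in fold is 0.675 to 1.70. Without Control 3 the value was -0.013. The ratio of Dcn to Lum in TPM was 12.1 and 9.22 in the cKO libraries and 5.60 and 8.86 in the Control libraries. The ratio was higher in both cKO libraries, and the difference between the genes was not tested.

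Ogn (ENSMUSG00000021390.7; chromosome 13, 49761522 to 49777977, plus strand) stood at 15.5 and 10.6 CPM in cKO 2 and cKO 3, against 9.73 and 9.999 CPM in Control 2 and Control 3. Only cKO 2 was clearly above the rest, and cKO 3 was close to the Control libraries. The log2 fold change was 0.40 (SE 0.29, edgeR adjusted p = 0.658), which was 0.11 without cKO 2 and 0.65 without cKO 3. In TPM the groups overlapped, with 9.05 and 6.68 in cKO against 6.33 and 6.86 in Control. The whole of Ogn lies within the span of Cenpp, a centromere protein gene on the opposite strand. The kit does not mark strand, so reads of the 2 genes cannot be told apart where their exons meet. Cenpp had 141 and 61.2 estimated counts in cKO 2 and cKO 3, against 56.9 and 72.4 in Control 2 and Control 3, and it too was highest in cKO 2; its part in the Ogn value was not tested.

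Of the 12 other proteoglycans of this family listed, 7 were tested and none passed; 5 had positive and 2 negative values, with a median of 0.17. Biglycan (Bgn), which binds collagen like decorin, stood at 24.0 and 19.0 CPM in cKO, against 14.3 and 17.3 CPM in Control (log2 fold change 0.44, SE 0.24). Prelp had 7.42 and 7.44 CPM in cKO, against 5.65 and 0.761 CPM in Control, so Control 3 stood far below the other libraries (log2 fold change 1.21, SE 0.76). Ecm2, a gene of the same chromosomal cluster as Ogn, stood at 1.84 and 2.01 CPM in cKO, against 2.34 and 3.86 CPM in Control (log2 fold change -0.68, SE 0.54). Adjusted p-values of these 3 from edgeR lay between 0.547 and 0.683. Aspn, the tested neighbour before Ogn and of the same family, was near the detection limit at 0.421 and 0.832 CPM in cKO, against 0.306 and 0.812 CPM in Control.

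Fn1 (ENSMUSG00000026193.16; chromosome 1, 71624679 to 71692359, minus strand) encodes fibronectin, a matrix glycoprotein that integrins bind and that collagen and other matrix proteins assemble on. Fn1 stood at 69.8 and 70.9 CPM in cKO 2 and cKO 3, against 34.4 and 59.2 CPM in Control 2 and Control 3. The cKO libraries were nearly equal, whereas Control 3 had 1.72 times the level of Control 2. The log2 fold change was 0.59 (SE 0.25, edgeR adjusted p = 0.454) and depended on the Control libraries: it was 0.25 without Control 2 and 1.03 without Control 3. The Fn1 estimated counts were not whole in 3 of the libraries.

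Of 12 genes for fibronectin receptors 11 were tested and none passed; 8 were positive and 3 negative, with a median of 0.11. Itgb1, the beta subunit of many fibronectin-binding integrins, stood at 128 and 129 CPM in cKO, against 92.3 and 103 CPM in Control (log2 fold change 0.40, SE 0.12, edgeR adjusted p = 0.379). Itga5, the alpha subunit that pairs with it in the main fibronectin receptor, had 7.90 and 13.1 CPM in cKO, against 4.58 and 7.66 CPM in Control (log2 fold change 0.78, SE 0.40). Itgb8, a beta subunit that pairs with the alpha V chain, stood at 11.8 and 20.8 CPM in cKO, against 8.81 and 9.24 CPM in Control (log2 fold change 0.86, SE 0.33). For each of these 3 genes both cKO libraries exceeded both Control libraries. In the whole list this held for 4 genes, against 22.0% of all tested genes. For 2 others, Itga3 and Itgb5, both cKO libraries lay below both Control libraries, against 22.2% of all tested genes.

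Of 25 other matrix glycoprotein genes 24 were tested: 19 were positive and 5 negative, the median was 0.27 and none passed. Tnc, which encodes tenascin-C and is also made by radial glia, stood at 122 and 149 CPM in cKO, against 92.7 and 108 CPM in Control (log2 fold change 0.44, SE 0.15). Emilin1, an elastic fibre protein, had 25.2 and 18.5 CPM in cKO, against 11.3 and 15.4 CPM in Control (log2 fold change 0.71, SE 0.27). Postn, which encodes periostin, had 14.1 and 14.6 CPM in cKO, against 8.55 and 9.75 CPM in Control (log2 fold change 0.65, SE 0.26). Adjusted p-values of these 3 from edgeR were 0.399 to 0.439. Among 16 collagen genes 14 were positive with a median of 0.40, and none passed. Col5a2, a fibrillar collagen chain, stood at 14.9 and 18.0 CPM in cKO, against 9.22 and 8.12 CPM in Control (log2 fold change 0.92, SE 0.26, edgeR adjusted p = 0.346). Col1a2, a chain of collagen I, stood at 102 and 94.98 CPM in cKO, against 74.5 and 78.3 CPM in Control (log2 fold change 0.36, SE 0.13).

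The transcription factors among the 10 are Foxc1 and Foxd1. Foxc1 (ENSMUSG00000050295.5; chromosome 13, 31990616 to 31996459, plus strand) stood at 14.1 and 8.10 CPM in cKO 2 and cKO 3, against 12.5 and 15.3 CPM in Control 2 and Control 3. Only cKO 3 was low, and cKO 2 lay between the Control libraries. Foxc1 had a log2 fold change of -0.33 (SE 0.33, edgeR adjusted p = 0.748), which was 0.012 without cKO 3 and -0.78 without cKO 2, so the negative value rests on cKO 3. In TPM both cKO libraries (3.58 and 2.33) were below both Control libraries (3.63 and 4.36), with cKO 2 and Control 2 nearly equal. Foxd1 (ENSMUSG00000078302.6; chromosome 13, 98490750 to 98495813, plus strand), a forkhead gene of stromal mesenchyme in the kidney and of meningeal cells, stood at 4.11 and 3.11 CPM in cKO 2 and cKO 3, against 1.58 and 3.35 CPM in Control 2 and Control 3. Control 2 was the low library, and the level rested on 31.5 to 78 estimated counts per library. Its log2 fold change of 0.55 had an SE of 0.54 (edgeR adjusted p = 0.749), and it was 0.10 without Control 2 and 1.19 without Control 3.

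Of 19 other transcription factors of meninges and mesenchyme 18 were tested and none passed; 12 were positive and 6 negative, with a median of 0.30. Tbx18, a T-box gene of pericytes and meningeal mesenchyme, stood at 8.69 and 6.48 CPM in cKO, against 4.58 and 3.96 CPM in Control (log2 fold change 0.83, SE 0.36). Osr1, a zinc finger gene of embryonic mesenchyme, had 3.001 and 3.94 CPM in cKO, against 4.99 and 7.72 CPM in Control (log2 fold change -0.87, SE 0.42). Prrx2, a mesenchymal homeobox gene, had 4.32 and 5.52 CPM in cKO, against 2.19 and 3.60 CPM in Control (log2 fold change 0.76, SE 0.46). Foxf2, a pericyte and mesenchyme gene and the tested neighbour before Foxc1 at 175 kb, stood at 9.85 and 8.85 CPM in cKO, against 6.92 and 7.77 CPM in Control (log2 fold change 0.35, SE 0.29). Foxc1 and this neighbour thus differed in sign, and neither passed.

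Slc6a13 (ENSMUSG00000030108.15; chromosome 6, 121277186 to 121314692, plus strand) encodes GAT2, a transporter of GABA and taurine that the leptomeninges express. Of the 10 genes it was the most even in CPM, at 37.6 and 37.3 in cKO 2 and cKO 3, against 37.6 and 40.4 in Control 2 and Control 3. The mean was 37.5 ± 0.20 CPM in cKO and 39.0 ± 1.96 CPM in Control (SD, n = 2 each). Slc6a13 had a log2 fold change of -0.06 (SE 0.17, edgeR adjusted p = 0.933), and the 95% interval in fold was 0.731 to 1.26. On the TPM scale the sign turned: 27.7 and 27.5 TPM in cKO against 26.0 and 25.3 TPM in Control, with no overlap. TPM also divides by a transcript length. The length implied by counts and TPM was 1990 and 2270 bases in the cKO libraries and 2351 and 2546 bases in the Control libraries, a spread of 24.3% of the mean and the widest of the 10 genes. Single-exon genes, used to set the scale, gave ratios of 0.579 to 1.19 to their table length, from the 5% to the 95% quantile.

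The nearest gene after Slc6a13, at 5.34 kb, is Slc6a12, which encodes the betaine and GABA transporter BGT1. Slc6a12 was low at 0.842 and 1.40 CPM in cKO, against 0.815 and 0.508 CPM in Control (log2 fold change 0.76, SE 0.81), and the sign was negative in TPM. Of the 5 listed SLC6 transporters of GABA, taurine and creatine 3 were positive and 2 negative, and none passed. Slc6a11 (GAT3), a GABA transporter of astrocytes, stood at 57.7 and 71.1 CPM in cKO, against 73.5 and 72.1 CPM in Control (log2 fold change -0.18, SE 0.16, edgeR adjusted p = 0.717). Of 10 solute carriers of the meninges 8 were positive, with a median of 0.36, and none passed. Slc13a4, a sulphate transporter, had 20.9 and 22.8 CPM in cKO, against 11.2 and 16.1 CPM in Control (log2 fold change 0.68, SE 0.26). Slc6a20a, a proline transporter, had 10.95 and 17.6 CPM in cKO, against 17.5 and 22.9 CPM in Control (log2 fold change -0.50, SE 0.30), and Slc16a9 a log2 fold change of 0.50 (SE 0.35).

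**Figure D2:**
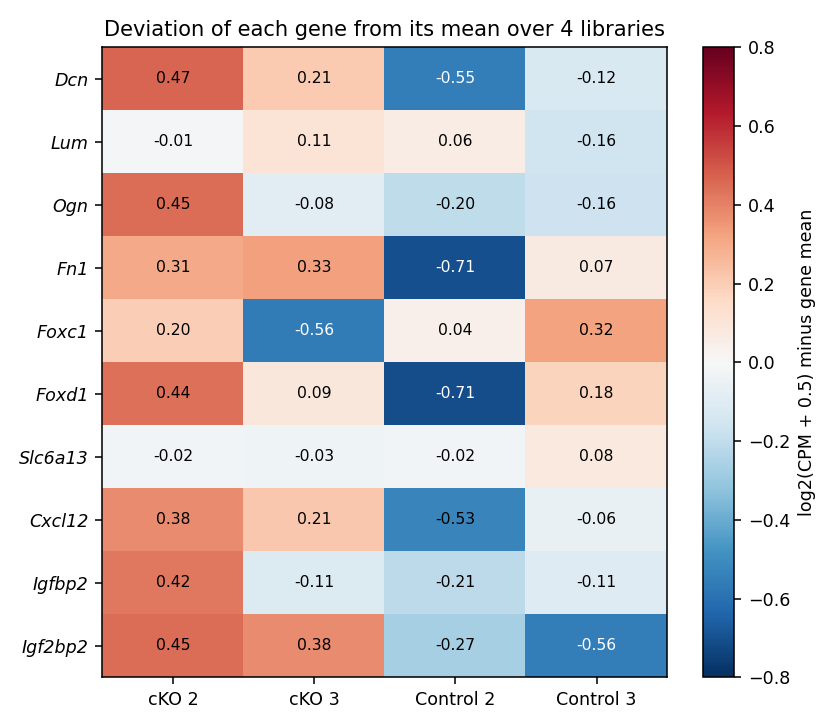
Deviation of each gene (rows) from its own mean over the 4 libraries (columns), on the log2(CPM + 0.5) scale; red is above and blue below the mean. Slc6a13 and Lum stay close to 0 in every library, cKO 2 and Control 2 hold many of the extremes, and Foxc1 is low in cKO 3.

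Cxcl12 (ENSMUSG00000061353.12; chromosome 6, 117145496 to 117158328, plus strand) is the secreted ligand among the 10. It encodes the chemokine CXCL12 (SDF-1), which signals through the receptor CXCR4 and is scavenged by ACKR3. Cxcl12 stood at 98.9 and 88.4 CPM in cKO 2 and cKO 3, against 52.6 and 73.0 CPM in Control 2 and Control 3. The groups did not overlap, and Control 2 was the lowest library. The mean was 93.6 ± 7.44 CPM in cKO and 62.8 ± 14.4 CPM in Control (SD, n = 2 each), a fold of 1.49 with a 95% interval of 1.11 to 2.01. Cxcl12 had a log2 fold change of 0.58 (SE 0.18, edgeR adjusted p = 0.382), which was 0.36 without Control 2 and 0.83 without Control 3. The table length of Cxcl12 is 5627 bases, but counts and TPM together implied 2088 ± 39.8 bases (SD over all 4 libraries). This implied length was 2118 and 2120 bases in the cKO libraries and 2036 and 2076 bases in the Control libraries. Dcn showed a similar gap, with 1826 ± 30.1 bases implied against a table length of 4692 bases. The implied length was 37.1% of the table length for Cxcl12 and 38.9% for Dcn, against 73.8% to 108% for the others of the 10.

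Both receptor genes were tested and neither passed. Cxcr4, expressed by migrating interneurons and Cajal-Retzius cells among others, stood at 10.8 and 9.94 CPM in cKO, against 5.91 and 7.31 CPM in Control (log2 fold change 0.65, SE 0.30, edgeR adjusted p = 0.482). Ackr3 stood at 39.6 and 21.5 CPM in cKO, against 30.8 and 24.5 CPM in Control (log2 fold change 0.14, SE 0.30), and its sign was negative without cKO 2, without Control 3 and in TPM. Cxcr4 was thus higher in both cKO libraries, and for Ackr3 the groups overlapped. The markers of Cajal-Retzius cells, which CXCL12 attracts, summed to 192 and 302 CPM in cKO, against 211 and 172 CPM in Control. Reln was the highest of that list, at 124 and 204 CPM in cKO, against 129 and 86.1 CPM in Control. Of the 6 markers 4 (Calb2, Trp73, Lhx1 and Lhx5) had negative log2 fold changes, the median was -0.17 and none passed. Reln (0.61) and Ndnf (0.84) were positive. Ndnf stood at 20.4 and 29.0 CPM in cKO, against 13.4 and 14.3 CPM in Control.

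Igfbp2 (ENSMUSG00000039323.19; chromosome 1, 72863662 to 72891633, plus strand) encodes a secreted protein that binds insulin-like growth factors. Igfbp2 stood at 419.6 and 289.8 CPM in cKO 2 and cKO 3, against 270.1 and 290.5 CPM in Control 2 and Control 3. The library cKO 2 alone was high, and the other 3 lay close together. Igfbp2 had a log2 fold change of 0.34 (SE 0.17, edgeR adjusted p = 0.528), which was 0.050 without cKO 2 and 0.58 without cKO 3, the male library. In TPM both cKO libraries were higher, at 539 and 432 in cKO, against 393 and 402 in Control. Choroid plexus cells also express Igfbp2, and the choroid plexus list summed to 371 and 17.7 CPM in cKO 2 and cKO 3, against 826 and 25.1 CPM in Control 2 and Control 3. Within cKO the library with more choroid plexus RNA also had more Igfbp2, and within Control it had less. The part of choroid plexus RNA in the Igfbp2 values was not tested.

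Igf2bp2 (ENSMUSG00000033581.18; chromosome 16, 21877759 to 21982049, minus strand) encodes a protein that binds Igf2 and other mRNAs; in the mouse cortex it is known from neural progenitors. Igf2bp2 stood at 14.8 and 14.1 CPM in cKO 2 and cKO 3, against 8.86 and 7.16 CPM in Control 2 and Control 3. The replicates lay close together within each group, and the groups were apart in CPM and in TPM. The mean was 14.5 ± 0.53 CPM in cKO and 8.01 ± 1.20 CPM in Control (SD, n = 2 each), a fold of 1.81 with a 95% interval of 1.16 to 2.80. The log2 fold change of 0.85 (SE 0.27, edgeR adjusted p = 0.382) was the largest of the 10, and 6.31% of all tested genes had a larger one. It ranged from 0.70 to 1.01 when a library was left out. Igf2bp2 rested on 141 to 322 counts per library. Markers of radial glia, which include progenitors in which Igf2bp2 is also expressed, summed to 1667 and 1589 CPM in cKO, against 1679 and 1716 CPM in Control. Fabp7 was the highest of that list, at 911 and 729 CPM in cKO, against 893 and 879 CPM in Control. The list held 5 positive and 5 negative log2 fold changes, with a median of -0.016, and none passed. Both cKO libraries lay above both Control libraries for 3 markers and below for 2, against 22.0% and 22.2% of all tested genes.

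Of 19 other genes of the insulin-like growth factor axis 18 were tested, 14 were positive and 4 negative, the median was 0.26 and none passed. Igfbp4 stood at 113 and 122 CPM in cKO, against 98.3 and 98.6 CPM in Control (log2 fold change 0.26, SE 0.12). Irs2, an adaptor of the receptor, had 65.5 and 78.0 CPM in cKO, against 63.4 and 61.2 CPM in Control (log2 fold change 0.20, SE 0.15). Pappa, a protease of binding proteins, was low in all libraries and near the detection limit in cKO. It had 0.053 and 0.53 CPM in cKO, against 1.37 and 0.964 CPM in Control (log2 fold change -1.97, SE 1.10). Igfbp5, which follows Igfbp2 at 5.46 kb, stood at 75.8 and 87.1 CPM in cKO, against 83.2 and 52.0 CPM in Control (log2 fold change 0.27, SE 0.23), with overlapping groups.

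**Figure D3:**
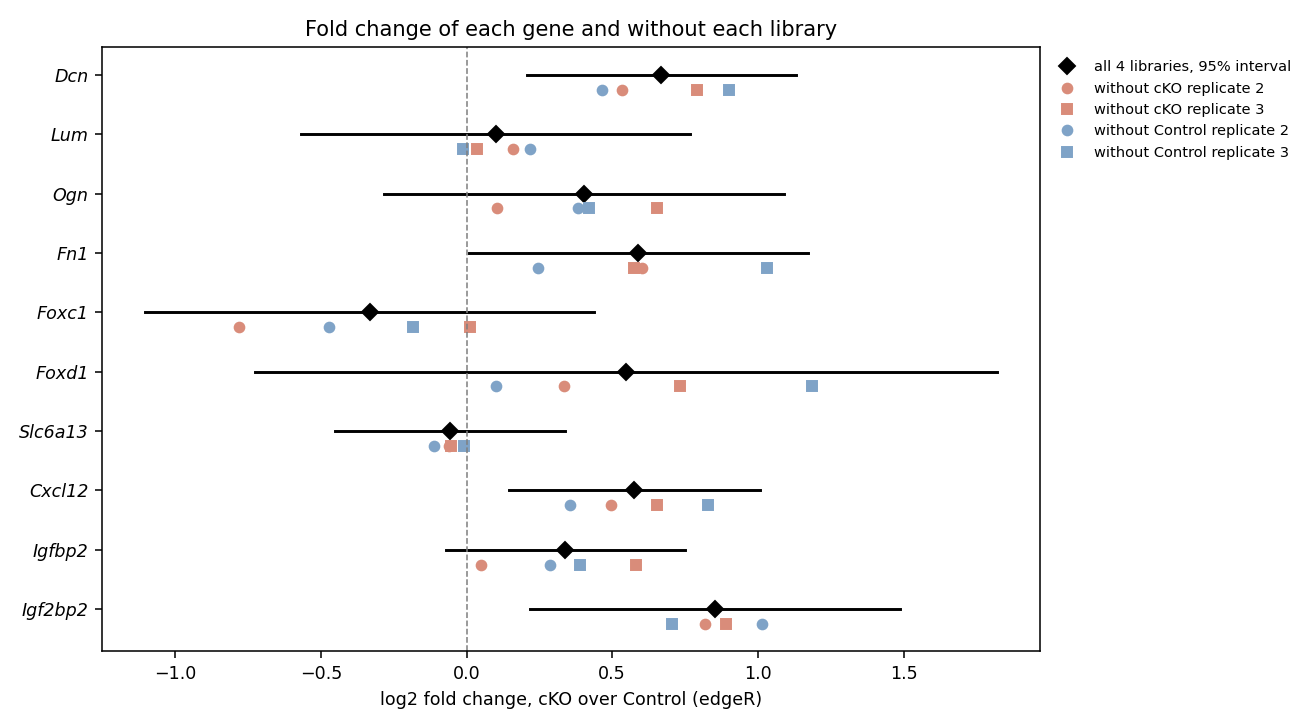
Log2 fold change of each gene, cKO over Control, with its 95% interval from edgeR (black diamonds and lines) and the value without each library in turn (coloured points). Igf2bp2, Dcn, Cxcl12 and Fn1 stay above 0 in every case, although the Fn1 interval starts at 0.0070. The intervals of the other genes include 0, and the values of Lum and Foxc1 without each library take both signs.

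Retinoic acid is another meningeal signal. Of 10 listed genes for its supply 5 were positive and 5 negative, the median was 0.10 and none passed. Crabp2, a retinoic acid-binding protein of meningeal cells, stood at 14.0 and 8.63 CPM in cKO, against 5.50 and 6.29 CPM in Control (log2 fold change 0.93, SE 0.35, edgeR adjusted p = 0.421). Aldh1a2, the synthesizing enzyme of the meninges, had 32.0 and 27.5 CPM in cKO, against 14.2 and 27.5 CPM in Control (log2 fold change 0.51, SE 0.32). Here cKO 3 and Control 3 were nearly equal and Control 2 was low. Cyp26b1, which degrades retinoic acid, had a log2 fold change of -0.35 (SE 0.30).

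**Figure D4:**
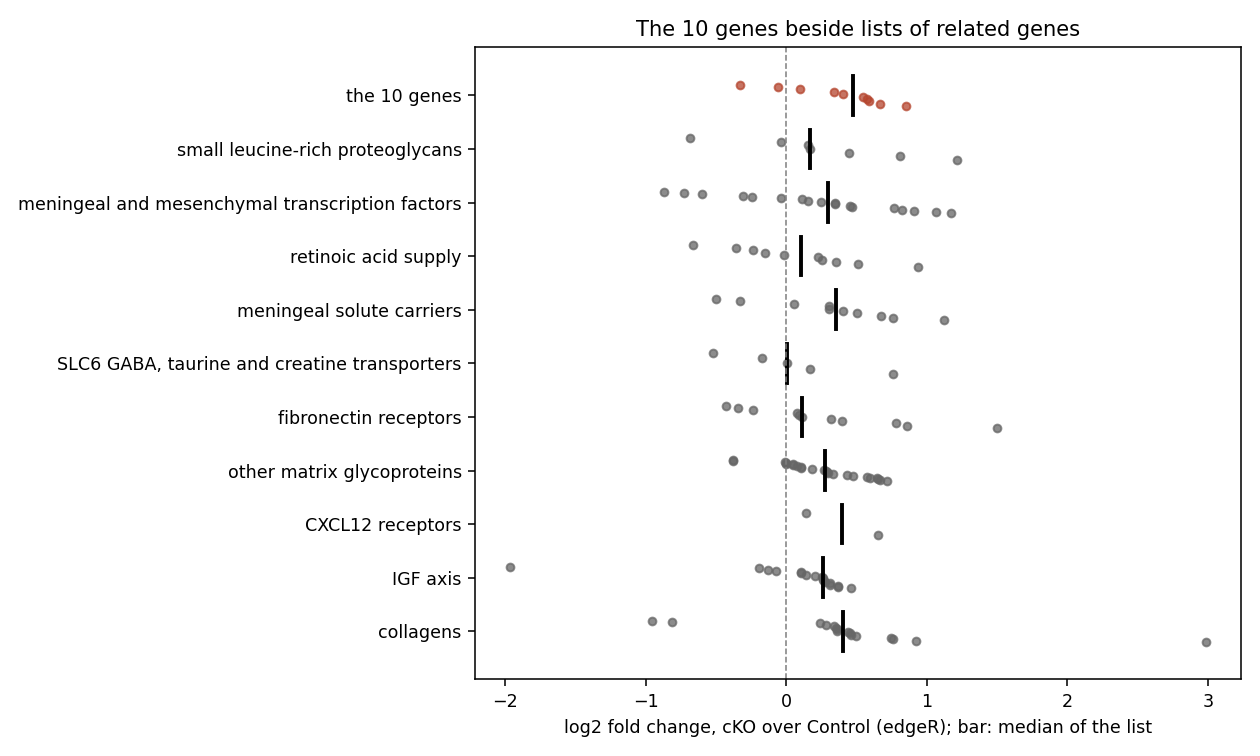
Log2 fold change, cKO over Control, of the 10 genes (red) and of the tested genes of each related list (grey, 1 point per gene); black bars are list medians. The median of the 10 genes is 0.48 and the list medians lie between 0.0019 and 0.40, with genes on both sides of 0 in every list except the CXCL12 receptors.

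Markers of other cell types were set beside these values. Endothelial markers summed to 266 and 263 CPM in cKO, against 249 and 228 CPM in Control. Pericyte and smooth muscle markers summed to 246 and 226 CPM in cKO, against 204 and 202 CPM in Control. Both sums were higher in both cKO libraries, as were those of the arachnoid list and of dura and skull (95.5 and 80.7 CPM in cKO, against 51.3 and 78.0 CPM in Control). In the dura and skull list Sp7 and Bglap, which mark bone-forming cells, were at 0 in both cKO libraries. Neither was at 0 in both Control libraries, but both fell below the filter on low counts and were not tested. Spp1 had the highest level of that list, at 49.4 and 41.5 CPM in cKO, against 20.2 and 32.9 CPM in Control. Microglia and macrophage markers summed to 122 and 76.6 CPM in cKO, against 101 and 106 CPM in Control, and red blood cell genes to 4910 and 1875 CPM in cKO, against 3089 and 3410 CPM in Control. In both lists cKO 2 was the highest and cKO 3 the lowest library. Markers of striatal neurons summed to 167 and 160 CPM in cKO, against 497 and 349 CPM in Control, and all 12 had negative log2 fold changes. Markers of cortical excitatory neurons summed to 1924 and 1873 CPM in cKO, against 1511 and 1729 CPM in Control. This sum, too, was higher in both cKO libraries. Neurod6, the highest gene of the list, stood at 730 and 720 CPM in cKO, against 480 and 587 CPM in Control. The list held 8 positive and 2 negative log2 fold changes (Bcl11b -0.32, Cux1 -0.11), with a median of 0.16, and none passed. Both cKO libraries lay above both Control libraries for 4 markers and below for 2, against 22.0% and 22.2% of all tested genes. Markers of astrocytes summed to 522 and 604 CPM in cKO, against 582 and 609 CPM in Control. The highest astrocyte marker was Aldoc, with a log2 fold change of 0.02. Over the 7 astrocyte markers tested the median was -0.49, 5 were negative, and 4 had an unadjusted p below 0.05 with both cKO libraries below both Control libraries; none passed after adjustment. The arachnoid barrier list summed to 34.3 and 30.6 CPM in cKO, against 39.0 and 34.6 CPM in Control. The part of these cell types in the values of the 10 genes was not tested.

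The library cKO 2 was the highest of the 4 for 6 of the 10 genes, and Control 2 the lowest for 6. The summed level of the 10 genes was 759 and 595 CPM in cKO 2 and cKO 3, against 474 and 557 CPM in Control 2 and Control 3, and Igfbp2 dominates it. The median log2 fold change of the 10 was 0.25 without cKO 2, 0.62 without cKO 3, 0.27 without Control 2 and 0.56 without Control 3. In TPM 6 of the 10 were higher in both cKO libraries than in both Control libraries and 1, Foxc1, was lower, where 20.1% and 21.0% of all tested genes were. The genes flanking the 10 on their chromosomes, 18 in all apart from Dcn and Lum, had a median log2 fold change of 0.15, from -0.52 to 1.64, and none passed (edgeR adjusted p of at least 0.399).

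**Figure D5:**
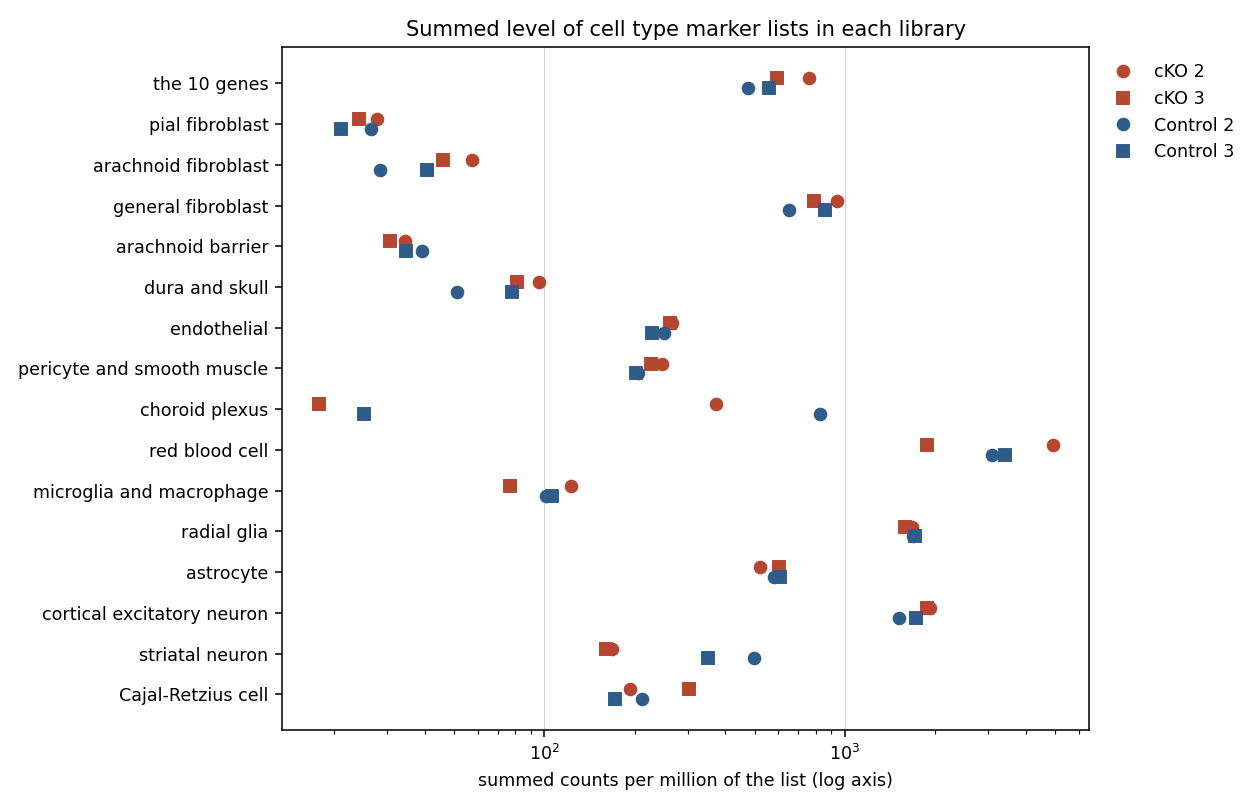
Summed level of the 10 genes and of each cell type marker list (rows) in CPM (log axis) in the 2 cKO (red) and 2 Control (blue) libraries; circles are replicate 2, squares replicate 3. Striatal neuron markers are lower in cKO, and choroid plexus markers are high in both libraries numbered 2 and low in both numbered 3.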

How the data were processed

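Per the labels' protocols, total RNA was isolated with TRIzol and libraries were prepared with the SMART-Seq v4 kit. The authors deposited estimated counts per gene and TPM values. The submitters' processing notes name DRAGEN and GRCm39. Its version, gene annotation and filters are not given in these sources. Estimated counts were rounded. Between 30.7% and 34.3% of the genes with counts held a count that was not whole, so reads can have been split between similar genes. Genes were kept by edgeR's default filter (edgeR 4.0.16, R 4.3.3), scaled with TMM factors of 0.979 to 1.02 and tested with the quasi-likelihood test, genotype as the only term, with Benjamini-Hochberg adjustment over 17017 genes. CPM values use the scaled totals. SE is the log2 fold change divided by the root of F.

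The procedure was tested on simulated counts of the 17017 genes for cKO over Control: it called 53 of 100 genes changed by 1 on the log2 scale, 90 of 100 changed by 2, and 9 of 16817 unchanged ones. The changed genes were drawn only from those above a floor of mean CPM, which Foxd1 does not reach. The log2 fold changes of the 10 genes were all below 1 in size, and sizes between 0 and 1 were not simulated. The 10 genes and the 10 related and 15 marker lists were chosen with earlier results of these data known. Of each related list, up to 3 genes with the smallest p are named, with Map2k7, both CXCL12 receptors and, of the flanking genes, those of the same family; of the others only ranges are given, and 1 listed gene is not reported here. The lists share genes (Aldh1a2, Crabp2 and Rdh10, Col1a1, Col1a2, Col3a1, Lox, Slc6a12, Igfbp7). In all, 16 alternatives were run: other scalings and filters, DESeq2 1.42.0, limma 3.58.1 (voom, and on log2 TPM with pseudocounts of 1 and 0.1, mean TPM of at least 0.5 or no filter), robust shrinkage, a replicate block, protein-coding genes alone, and without each library. Replicates were not duplicates: chi-square per degree of freedom was 27.7 (cKO) and 12.8 (Control).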

Additional observations from a re-analysis of the deposited data

How the results depend on the processing

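None of the 10 genes was called under any of the 16 alternatives. Of 160 values, 155 kept their sign and side of the threshold. Those that reversed were Lum (without each library -0.013 to 0.22), Foxc1 (-0.78 to 0.012) and Slc6a13 on TPM (0.10 with a pseudocount of 1, with or without a filter, and 0.11 with 0.1). Of 521 values of 33 other genes 12 reversed: Ackr3 (without each library -0.36 to 0.52; -0.039 and -0.045 on log2 TPM with pseudocounts of 1 and 0.1), Aspn (-0.41 to 1.02; -0.013 on unfiltered TPM), Igfbp5 (-0.033 to 0.65) and Slc6a12 (-0.020 and -0.092 on TPM). The causes were not tested. Over all genes, 1 higher and 7 lower calls became 21 and 37 with no filter, 2 higher at a mean CPM of at least 1, 76 and 108 with DESeq2, 3 higher with limma-voom and 3 higher over protein-coding genes. On log2(TPM + 1) they were 43 and 14, or 0 and 0 unfiltered, and 30 higher on log2(TPM + 0.1). Without each library they ranged from 0 to 0 higher and 0 to 2 lower. The replicate block gave 1 higher and 6 lower calls and none among the 10; the pairing is not given by the labels, and same-numbered deviations correlated at -0.025 across 11922 genes, which are not independent.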
